A study of Mus musculus with 8 samples.

Results

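The 7 genes *Hmga1*, *Hmga2*, *Lin28a*, *Lin28b*, *Igf2bp1*, *Igf2bp2* and *Igf2bp3* were taken by their symbols from the 28001 genes and other features of the count tables. HMGA1 and HMGA2 are small architectural proteins that bind AT-rich DNA and bend it. LIN28A and LIN28B bind the precursors of the let-7 microRNAs and block their maturation, and IGF2BP1, IGF2BP2 and IGF2BP3 are KH-domain proteins that bind messenger RNAs and alter their stability, transport and translation. The genes are known as a fetal set that is abundant in embryonic tissues, and most of them are scarce in most adult ones. Mature let-7 accumulates as tissues mature, and messages with a let-7 site in the 3′ untranslated region (UTR) are among its targets.

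Transcripts were counted with unique molecular identifiers (UMIs) in single cells of embryonic mouse forelimbs at 5 stages. The 6 sorted groups held tdTomato+ mesenchymal progenitors and their descendants from C57BL/6J embryos of the genotype *Hic1*CreERT2/CreERT2; *Rosa26*LSLtdTomato/tdTomato, 1 library each, at E11.5, E12.5, E13.5 and E14.5 and from a proximal and a distal segment at E16.5. The proximal segment spanned the lower upper arm, the elbow and the upper forearm, and the distal segment the remaining forearm and the paw. The whole limb group had 2 libraries of E11.5 lineage-negative cells, labelled as both tdTomato+ and tdTomato-. All dams received 7.5 mg tamoxifen by mouth at E10. Cre therefore acted only in cells that expressed *Hic1* soon after that day, both *Hic1* copies carried the CreERT2 insertion in the sorted groups, and limbs of several embryos were pooled in each library, so that differences between embryos could not be measured.

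All 7 genes carried at least 1 let-7 site in the longest 3′UTR annotated among their coding transcripts. These sequences are shown because the set is best known through let-7. The mature miRNAs below (RefSeq, GRCm38.p6) are 4 of the 11 sequences, from 13 loci, that share the seed, bases 2 to 8 counted from the 5′ end, in capitals. let-7j, which has another seed, was left out.
mmu-let-7a-5p: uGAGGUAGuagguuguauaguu
mmu-let-7d-5p: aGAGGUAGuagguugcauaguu
mmu-let-7e-5p: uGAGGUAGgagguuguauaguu
mmu-miR-98-5p: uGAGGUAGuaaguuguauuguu

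The complement of this seed, CTACCTC, was searched on the transcript strand of GENCODE vM21 3′UTRs (GRCm38) and is in capitals below. *Hmga2*, *Lin28b* and *Igf2bp1* each held 4 copies, *Lin28a* held 2, and *Hmga1*, *Igf2bp2* and *Igf2bp3* held 1 each. The first copy in *Hmga2* lies at chr10:120364225-120364231 on the minus strand, the first in *Lin28b* at chr10:45381023-45381029 (minus), the second in *Igf2bp1* at chr11:95959358-95959364 (minus), the copy in *Igf2bp3* at chr6:49086788-49086794 (minus) and the copy in *Hmga1* at chr17:27563292-27563298 (plus).
*Hmga2*: gccgacattcaatttCTACCTCagca
*Lin28b*: acccgggcgggaagtCTACCTCatgc
*Igf2bp1*: cagcagtgctattaaCTACCTCagcc
*Igf2bp3*: tgcatttttactcaaCTACCTCaggt
*Hmga1*: tcctctgttcacaaaCTACCTCtgga
Of 21037 genes with an annotated 3′UTR, 9.02% held the motif and 0.0570% held 4 copies or more. Long 3′UTRs hold it more often, so each member was set beside 3′UTRs of similar length. Among these, 4 or more copies were held by 0.123% of 2439 3′UTRs for *Hmga2* (3014 bases), by 0.295% of 1358 for *Lin28b* (4445 bases) and by 0.331% of 605 for *Igf2bp1* (6337 bases). A single copy was less unusual, at 8.23% of 3′UTRs of the length of *Hmga1*, 12.1% for *Igf2bp2* and 13.3% for *Igf2bp3*. These are matches of letters, and binding was not measured.

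After cells with at least 3000 UMIs and at most 10% mitochondrial UMIs were kept, the libraries held 3165 to 11109 cells with a median of 6788 to 18473 UMIs. E11.5, E12.5, E13.5 and whole limb libraries were made with the v2 kit and E14.5 and E16.5 libraries with the v3 kit, and the digestion enzymes changed after E12.5. Any 2 libraries shared at most 54 cell barcodes. The mesenchymal genes *Prrx1* and *Pdgfra* were at 111 to 647 UMIs per 1000000 UMIs (CPM) in all 8 libraries. The gene *Hic1*, a transcriptional repressor that marks these progenitors, was at 22.0 to 38.0 CPM in the 6 sorted libraries against 0.702 and 0.741 CPM in whole limb cells. The immune gene *Ptprc* was at 0 in E11.5 sorted cells and at most 0.117 CPM elsewhere. The 8 epithelial markers were all detected at E14.5, at E16.5 and in the whole limb, and summed to 4136 CPM (E16.5 proximal) and 679 CPM (E16.5 distal) against 45 to 115 CPM in the other 6 libraries.

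*Hmga2* had the steepest course of the Hmga and Igf2bp genes. Its level was 781 CPM (95% Poisson interval 771 to 791) in E11.5 sorted cells, 481 CPM at E12.5, 245 CPM at E13.5, 62.5 CPM at E14.5, 14 CPM in E16.5 proximal cells and 9.87 CPM in E16.5 distal cells. The 2 whole limb libraries held 612 and 611 CPM. Each stage was below the one before it, and every neighbouring pair in this order was separated by more than counting error except the 2 whole limb libraries. From E11.5 to E16.5 proximal the level was 56.0-fold lower (95% interval 54.0 to 58.1). Intervals and ratios here cover counting error only, since each stage is 1 library. No trend over embryonic day was fitted and no stage was tested against another.

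*Hmga1* was highest in E11.5 sorted cells, at 80.7 CPM. E12.5 cells held 21.4 CPM, E13.5 cells 26.6 CPM, E14.5 cells 4.07 CPM, E16.5 proximal cells 6.59 CPM and E16.5 distal cells 9.12 CPM. The whole limb libraries held 32.7 and 47.6 CPM. The course was not monotonic: E13.5 lay above E12.5 and both E16.5 libraries lay above E14.5. The 2 whole limb libraries differed by more than counting error, so the spread between libraries of 1 group exceeded that error for this gene. Reads that match more than 1 place in the genome can be split or lost in counting, which makes the level of *Hmga1* uncertain.

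Both Lin28 genes were rare. *Lin28b* was at 4.67 CPM (147 UMIs) in E11.5 sorted cells, 1.58 CPM at E12.5, 0.947 CPM at E13.5, 0.306 CPM at E14.5, 0.047 CPM (11 UMIs) in E16.5 proximal cells and 0.075 CPM (12 UMIs) in E16.5 distal cells. It was highest in the whole limb libraries, at 10.5 and 9.36 CPM. Its level in E16.5 proximal cells was 99.7-fold below that of E11.5 sorted cells, with an interval of 54.1 to 204, and the E16.5 segments were within counting error of each other. *Lin28a* gave 12 UMIs in E11.5 sorted cells (0.381 CPM), 23 and 15 UMIs in the whole limb libraries (0.448 and 0.292 CPM) and 0 to 3 UMIs in each later library. At E12.5 it was not seen at all, and 3 UMIs, the floor used for a count of 0, would be 0.0678 CPM there.

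The Igf2bp genes had shallower courses than *Hmga2* and stayed abundant at E16.5. *Igf2bp1* was at 322 CPM in E11.5 sorted cells, 266 CPM at E12.5, 155 CPM at E13.5, 98.8 CPM at E14.5, 69.9 CPM in E16.5 proximal cells and 91.9 CPM in E16.5 distal cells, with 363 and 379 CPM in whole limb cells. *Igf2bp2* was at 204, 181, 144, 82.8, 69.5 and 62.8 CPM in the same order of sorted libraries, and at 174 CPM in each whole limb library. *Igf2bp3* was at 200, 143, 103, 66.4, 52.9 and 53.5 CPM, with 182 and 171 CPM in whole limb cells. All 3 genes were lower at each stage than at the one before up to E16.5 proximal. The 2 whole limb libraries of *Igf2bp2* and the E16.5 segments of *Igf2bp3* were within counting error of each other. The level at E16.5 proximal was 4.61-fold (4.5 to 4.72), 2.94-fold (2.85 to 3.02) and 3.78-fold (3.66 to 3.89) below that at E11.5 for *Igf2bp1*, *Igf2bp2* and *Igf2bp3*.

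**Figure D1:**
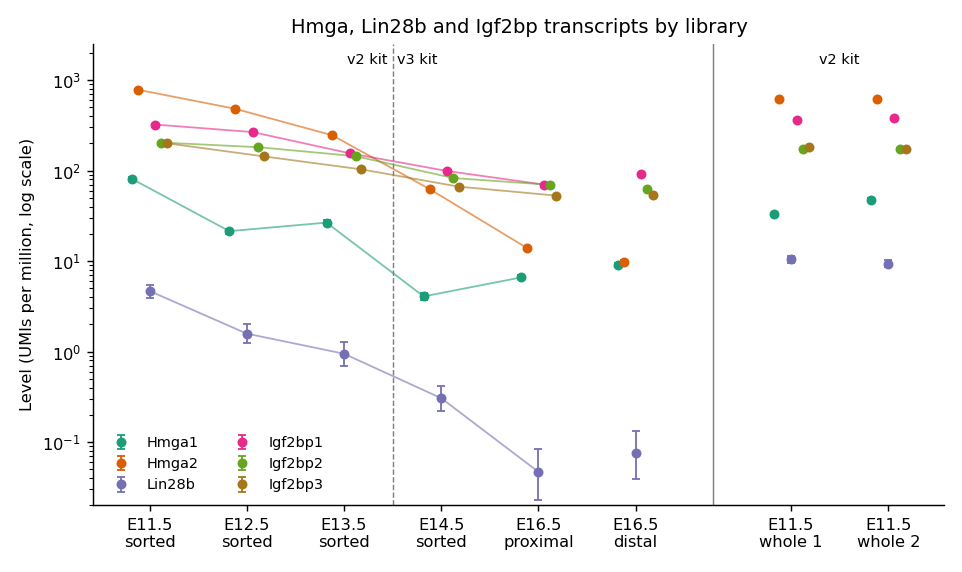
Level of 6 genes in each of the 8 libraries, in CPM on a log axis, with 95% Poisson intervals that cover counting error only. Lines join the sorted libraries from E11.5 to E16.5 proximal and dashes mark the change from the v2 to the v3 kit. *Hmga2* runs from 781 CPM to 14 CPM, whereas the 3 Igf2bp genes stay between 50 and 100 CPM at E16.5. *Lin28a* is not drawn.

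Many other genes were also lower at the end of the course, so the members were read against all genes that reached 5 CPM in at least 1 library of a comparison, with a limit of 2-fold on CPM + 1. From E11.5 to E16.5 proximal, 5 of 5 members that met the filter were at least 2-fold lower, against 28.0% of 10903 genes lower and 13.8% higher. The median gene was at -0.47 on the log2 scale, *Hmga2* at -5.71, *Hmga1* at -3.43, *Igf2bp1* at -2.19, *Igf2bp3* at -1.90 and *Igf2bp2* at -1.54. *Hmga2* had the second lowest ratio of all, after the histone gene *Hist1h2ap*, and *Hmga1* ranked 44. The ranks of *Igf2bp1*, *Igf2bp3* and *Igf2bp2* were 368, 632 and 1313, which puts *Igf2bp2* at the 12 percentile. With TMM scaling the median gene moved to -0.04 and the split to 15.4% lower and 20.1% higher, while *Hmga2* stood at -5.30 and *Igf2bp2*, the nearest of the 5 to the median, at -1.12. *Lin28b*, at 4.67 CPM, fell just short of the 5 CPM filter, and *Lin28a* was far below it.

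The course was also read within kits. From E11.5 to E13.5, within v2, 3 of the 5 members were at least 2-fold lower against 3.49% of 10454 genes, with 5.26% higher: *Hmga2* was 3.18-fold lower (3.11 to 3.25), *Hmga1* 3.03-fold (2.83 to 3.25) and *Igf2bp1* 2.07-fold (2.01 to 2.14). *Igf2bp3* was just outside the limit at 1.95-fold, and *Igf2bp2* was at 1.42-fold. The *Hmga1* difference arose between E11.5 and E12.5, where it was 3.76-fold lower and 0.994% of genes passed the limit downwards and 2.50% upwards. *Hmga2* was 1.62-fold lower in that step and 1.96-fold lower from E12.5 to E13.5, a step in which no member passed and 1.63% of genes were lower and 1.80% higher. *Igf2bp1* was 1.21-fold lower in the first of these steps and 1.71-fold lower in the second. The digestion enzymes changed between E12.5 and E13.5. Enzymes and stage therefore cannot be told apart in the second step or from E11.5 to E13.5.

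Within v3, from E14.5 to E16.5 proximal, 1 of 5 members passed the limit against 6.46% of 10493 genes lower and 7.09% higher. *Hmga2* was 4.48-fold lower (4.30 to 4.66), and from E14.5 to E16.5 distal it was 6.33-fold lower (6.00 to 6.69), where 5.82% of genes passed downwards and 7.97% upwards. *Igf2bp1*, *Igf2bp2* and *Igf2bp3* stood in the proximal segment at log2 values of -0.49, -0.25 and -0.32 beside a median gene at -0.20. With TMM scaling, which changed the split to 3.47% lower and 9.64% higher, these values became -0.25, -0.01 and -0.08, so that the late difference of *Igf2bp2* and *Igf2bp3* nearly vanished under another scaling. *Hmga1* was 1.62-fold higher in the proximal segment than at E14.5. The summed epithelial markers were at 115 CPM and 4136 CPM in these libraries, and without epithelial clusters the log2 value of *Hmga1* went from 0.58 to 0.22. In the distal segment *Hmga1* was 2.24-fold higher than at E14.5 (2.03 to 2.48), just short of the limit on CPM + 1, with summed epithelial markers at 679 CPM. From E14.5 to E16.5 distal it was also higher within classes named by their markers, by 7.97-fold (2.92 to 30.4) in pericyte-like, 6.86-fold (3.27 to 17.3) in fibroblast-like, 2.09-fold (1.33 to 3.32) in tenocyte-like, 1.60-fold (1.07 to 2.38) in chondrocyte-like and 1.31-fold (1.05 to 1.65) in dermal fibroblast-like cells. From E14.5 to E16.5 proximal the interval lay above equal levels in pericyte-like cells (5.84-fold, 2.17 to 22.2) and dermal fibroblast-like cells (1.35-fold, 1.09 to 1.68), and spanned them in fibroblast-like, tenocyte-like, chondrocyte-like, osteogenic and perichondrial-like cells. In epithelial-like cells, which proximally were a *Krt1*-led cluster only, *Hmga1* was 2.65-fold lower (1.87 to 3.68) in the proximal segment than at E14.5. The proximal basal keratinocyte cluster, led by *Krt14* and *Krt5*, fell outside this class and held 44.8 CPM of *Hmga1*. Epithelial-like cells of E14.5 held 26.5 CPM. The distal interval of epithelial-like cells spanned equal levels (1.37-fold higher, 0.939 to 2.03). Between E13.5 and E14.5 *Hmga1* was 6.55-fold and *Hmga2* 3.93-fold lower, against 5.07% of genes lower and 4.47% higher, but kit and stage cannot be told apart there, and the housekeeping genes *Rpl13a* (4330 to 926 CPM) and *Gapdh* (413 to 955 CPM) also passed the limit.

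The share of cycling cells was also lower at later stages, so each level was also taken within states. Every cell was thinned to 3000 UMIs and called cycling with at least 3 of 32 G2/M genes or 5 of 33 S-phase genes, and non-cycling with at most 1 and 2 of them. Cycling cells made up 79.5% of the E11.5 sorted library, 59.0% of E12.5, 51.7% of E13.5, 33.0% of E14.5, 33.5% of E16.5 proximal and 23.7% of E16.5 distal, and 96.0% and 95.4% of whole limb cells. *Hmga2* was lower at each later stage inside both states. In cycling cells it was at 808, 511, 268, 76.3, 17.1 and 10.6 CPM from E11.5 to E16.5 distal. In non-cycling cells it was at 609, 418, 212, 49.0, 11.4 and 9.87 CPM in the same order. The fold from E11.5 to E16.5 proximal was 47.1 (44.8 to 49.7) in cycling and 53.5 (48.7 to 58.9) in non-cycling cells, beside 56.0 in all cells.

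The other members that met the 5 CPM filter were lower at the end of the course inside both states too. From E11.5 to E16.5 proximal, *Hmga1* was 9.69-fold lower in cycling and 12.5-fold lower in non-cycling cells. *Igf2bp1* was 4.43- and 5.76-fold lower, *Igf2bp2* 2.96- and 3.25-fold and *Igf2bp3* 3.76- and 3.33-fold. When the shares of the states were held at those of E11.5 sorted cells, *Hmga2* went from 773 CPM to 16.3 CPM. With the shares held, 5 of 5 members were still at least 2-fold lower, against 25.7% of 10817 genes lower and 13% higher. *Lin28b* was 143-fold lower in cycling and 75.9-fold lower in non-cycling cells, on few UMIs. *Lin28a* was too rare to be read by state.

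**Figure D2:**
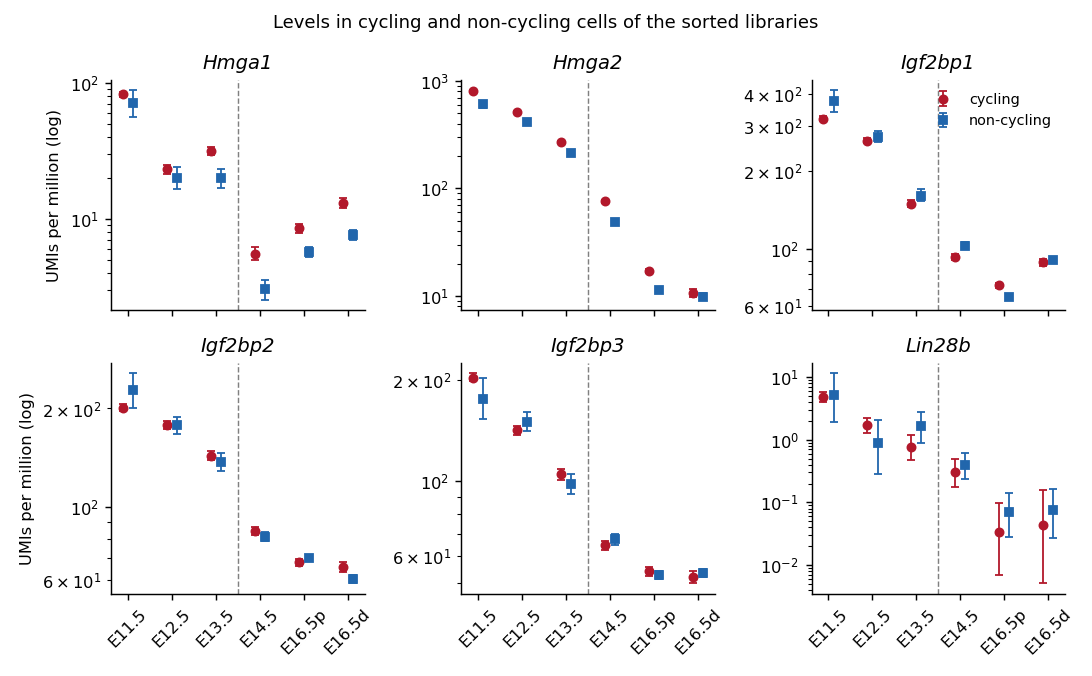
Levels of 6 genes in cycling (circles) and non-cycling (squares) cells of the 6 sorted libraries, in CPM on log axes that differ between panels, with 95% Poisson intervals. E16.5p and E16.5d are the proximal and distal segments and dashes mark the kit change. *Hmga2* runs downwards in both states from E11.5 to E16.5, and *Hmga1* is higher at both E16.5 segments than at E14.5 in both states. *Hmga1* and *Hmga2* lie higher in cycling cells, with overlapping intervals for *Hmga1* at E11.5 and E12.5 and for *Hmga2* in E16.5d.

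Whether cycling cells themselves held more of these transcripts was tested over the 8 libraries with edgeR's quasi-likelihood test, with library as a block. *Hmga1* was higher in cycling cells by 0.55 ± 0.09 (log2, SE; Benjamini-Hochberg adjusted p = 0.00103 over all genes) and *Hmga2* by 0.41 ± 0.08 (adjusted p = 0.00396). These were 2 of 7 members, against 8.89% of 16841 genes higher and 3.49% lower. Both genes were at higher levels in cycling cells in 8 of 8 libraries, but not always beyond counting error. For *Hmga2* the levels ran from 808 against 609 CPM at E11.5 to 10.6 against 9.87 CPM in E16.5 distal cells. The counting intervals of *Hmga2* overlapped there and in both whole limb libraries. Those of *Hmga1* overlapped in the E11.5 sorted, E12.5 and both whole limb libraries. Whole limb cells in neither state held more *Hmga2*, at 762 and 732 CPM, than cycling ones, at 609 and 608 CPM. *Igf2bp1* differed by 0.04 (adjusted p = 0.877), *Igf2bp2* by 0.13 (adjusted p = 0.521), *Igf2bp3* by 0.14 (adjusted p = 0.536) and *Lin28b* by -0.03 (adjusted p = 0.977) in this edgeR fit, and none of these passed. The contrast differed between whole limb and sorted libraries for all 3 Igf2bp genes, in an edgeR interaction test chosen after seeing the data in which 13.9% of genes passed, 10.0% with a higher value in the whole limb and 3.84% with a lower one. That test rested on 46 and 41 non-cycling whole limb cells and was fitted with TMM scaling only. In the cycling test itself DESeq2 size factors gave 1525 genes higher and 1439 lower, in place of 1498 and 588, and the same 2 members passed. Without the library block neither passed. When non-cycling cells were limited to those with no cycle gene, *Hmga2* passed (adjusted p = 0.0479) and *Hmga1* did not (adjusted p = 0.144), both with edgeR.

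Each library was clustered on its own, leaving the members, the G2/M and S-phase lists and some related gene families out of the clustering genes. Other cycle genes were not left out, and some clusters were led by cycle genes, such as the largest at E12.5 (789 cells, led by *Nusap1* and *Esco2*). Clusters were named only where at least 3 fixed markers of a class were raised. The spread of *Hmga2* between clusters was wider from E14.5 on than at E11.5 to E13.5. At E11.5 its 9 clusters ran from 398 CPM through a median of 871 CPM to 1110 CPM, a 2.79-fold range, and at E12.5 and E13.5 the range was 6.00- and 6.55-fold. At E14.5 the 20 clusters ran from 5.78 to 145 CPM, 25.1-fold. In E16.5 proximal cells the 24 clusters ran from 1.18 to 45.2 CPM, 38.3-fold, with the lowest led by the epithelial gene *Krt1*. Without the 2 clusters led by epithelial genes, a choice made after seeing the data, the proximal range was 3.12 to 45.2 CPM or 14.5-fold, narrower than at E14.5. In E16.5 distal cells the 23 clusters ran from 0.239 CPM, which is 2 UMIs, to 54.4 CPM, and neither end was epithelial. Some populations were thus near the detection floor at E16.5 while others held over 40 CPM. The number of clusters was also larger at later stages, 9 at E11.5 and 24 in E16.5 proximal cells, and its part in the wider range was not tested. The kit changed after E13.5, and median UMIs were 6788 to 8992 in the earlier sorted libraries and 14333 to 18473 in the later ones. Kit, depth and stage therefore cannot be told apart in this widening.

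The Igf2bp genes had narrower ranges in each library. *Igf2bp1* clusters differed 1.48-fold at E11.5, 1.52-fold at E12.5, 1.49-fold at E13.5, 1.72-fold at E14.5, 3.43-fold in E16.5 proximal and 2.28-fold in E16.5 distal cells. *Igf2bp2* ranged 1.31-fold at E11.5 and 2.52-fold in E16.5 proximal cells, and *Igf2bp3* 1.47-fold and 1.90-fold. Without epithelial clusters the proximal ranges were 2.76-fold for *Igf2bp1*, 2.52-fold for *Igf2bp2* and 1.67-fold for *Igf2bp3*. All 3 were present in every cluster of at least 50 cells, at no less than 29.7 CPM for *Igf2bp1*, 32.6 CPM for *Igf2bp2* and 35.7 CPM for *Igf2bp3*.

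**Figure D3:**
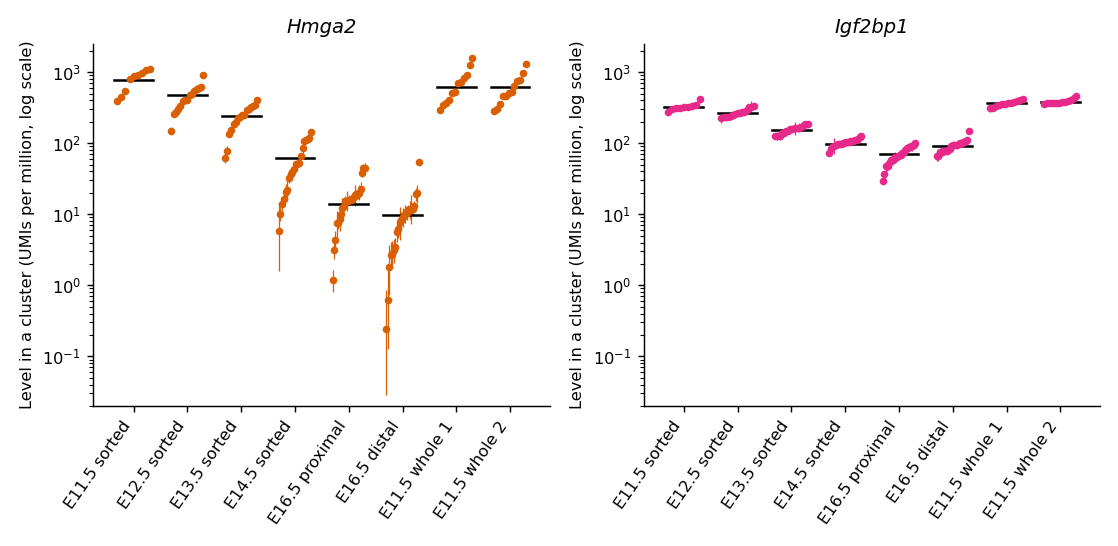
Level of *Hmga2* and *Igf2bp1* in each cluster of at least 50 cells, by library, in CPM on a log axis with 95% Poisson intervals; black bars are the level of the whole library. *Hmga2* clusters span 2.79-fold in E11.5 sorted cells and 38.3-fold in E16.5 proximal cells, and *Igf2bp1* clusters span at most 3.43-fold in any library. The lowest cluster of both genes in E16.5 proximal cells is epithelial, and without epithelial clusters the spans there are 14.5-fold and 2.76-fold.

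In whole limb cells the clusters led by distal limb genes were the lowest in *Hmga2*. In both whole limb libraries the lowest cluster was led by *Tfap2b*, *Evx2* and *Hoxd13*, genes of the distal bud, at 292 CPM (281 to 303) and 284 CPM (270 to 298). The highest was led by *Lum*, with *Dcn* among the top genes, at 1607 CPM (1552 to 1663) and 1323 CPM (1291 to 1356). Distal limb bud mesenchyme-like cells were at 347 and 361 CPM of *Hmga2* and fibrogenic progenitor-like cells at 908 and 778 CPM, so the order recurred in the replicate. In E11.5 sorted cells the cluster led by *Meis2*, with the proximal gene *Irx5* among its top genes, was at 1066 CPM, the highest was led by *Amt* and *Fn3krp* at 1110 CPM and the lowest by *Ntrk2* at 398 CPM. At E12.5 the clusters ran from 150 to 900 CPM, with the highest led by *Irx5*. *Igf2bp1* differed little between clusters, and was at 309 to 417 CPM and 362 to 462 CPM over all clusters of the whole limb libraries. At E13.5 the lowest *Hmga2* level, 62.4 CPM, was in a cluster with *Hoxd13* among its top genes. These clusters were singled out after their values were seen.

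Among skeletal classes, *Hmga2* in chondrocyte-like cells was at 867 CPM at E11.5, 615 CPM at E12.5, 318 CPM at E13.5 and 105 CPM at E14.5. At E16.5 the segments parted, with 16 CPM (14.1 to 18.1) in 762 proximal and 54.4 CPM (49.3 to 59.9) in 449 distal chondrocyte-like cells, a 3.39-fold difference (2.90 to 3.98) against the direction of the whole libraries. *Igf2bp1* showed the same order in these cells, 38.7 and 94.1 CPM or 2.43-fold (2.18 to 2.71), while *Igf2bp2* (71.1 and 79.6 CPM) and *Igf2bp3* (44.0 and 44.9 CPM) differed by 1.12-fold or less. *Igf2bp1* was also higher distally in the whole library (1.31-fold), in epithelial-like cells (2.22-fold) and in tenocyte-, dermal fibroblast-, fibroblast- and pericyte-like cells (1.23- to 1.46-fold). In fibrogenic progenitor-like cells its interval spanned equal levels. *Hmga2* was also higher distally in epithelial-like cells (19.6 against 1.18 CPM), where the proximal class was a *Krt1*-led cluster. In non-cycling chondrocyte-like cells alone *Hmga2* was at 16.4 CPM (proximal) and 56.2 CPM (distal), and when single cells were classed by markers the difference narrowed to 2.11-fold. Osteogenic and perichondrial-like cells held 145 CPM of *Hmga2* at E14.5 and 45.2 CPM in the proximal segment, the highest level of any cluster in both libraries.

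The connective tissue classes were at differing levels. *Hmga2* in tenocyte-like cells was at 390 CPM at E12.5, 189 CPM at E13.5, 50.8 CPM at E14.5, and 20.2 and 12.9 CPM in the E16.5 proximal and distal segments. In dermal fibroblast-like cells it was at 346 CPM at E13.5, 115 CPM at E14.5, and 14.5 and 9.53 CPM at E16.5, which was not below chondrocyte-like cells at E13.5 and E14.5. Fibroblast-like cells were already at 14.1 CPM (11 to 17.7) at E14.5, against 105 CPM in chondrocyte-like cells of that library, and were at 12.9 CPM in the proximal and 4.61 CPM in the distal segment. Fibrogenic progenitor-like cells at E16.5 were lowest of the named mesenchymal classes, with 3.12 CPM (2.31 to 4.13) proximally and 2.67 CPM (1.63 to 4.12) distally, 14.5-fold (10.5 to 20.2) below proximal osteogenic and perichondrial-like cells. The same cells held 93.4 and 100 CPM of *Igf2bp1*, the highest of the named classes in each segment, though within counting error of dermal fibroblast-like cells (96.2 CPM) distally. The proximal cluster lost this class name at Leiden resolution 2, because markers of a different class outnumbered its own among the leading genes. Classes were rebuilt from markers, and 1 class may hold different cells at different stages.

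Within most classes the late difference was present in both states. From E14.5 to E16.5 proximal, *Hmga2* was 6.51-fold lower in cycling and 6.03-fold lower in non-cycling chondrocyte-like cells, and 7.24- and 7.86-fold lower in dermal fibroblast-like cells. In tenocyte-like cells it was 2.85- and 2.38-fold lower. In fibroblast-like cells the ratios were 0.969 (0.465 to 1.87) and 0.975 (0.630 to 1.48), with intervals that span equal levels, but from E14.5 to E16.5 distal *Hmga2* was 2.77-fold (1.23 to 5.95) and 3.19-fold (1.98 to 5.08) lower in these cells. This class was led by *Prss12*, *Wnt2* and *Sfrp4* at E14.5 and by *Ly6a* and *Pi16* in the proximal segment, where a cluster led by *Sfrp4* and *Prss12* was left unnamed.

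**Figure D4:**
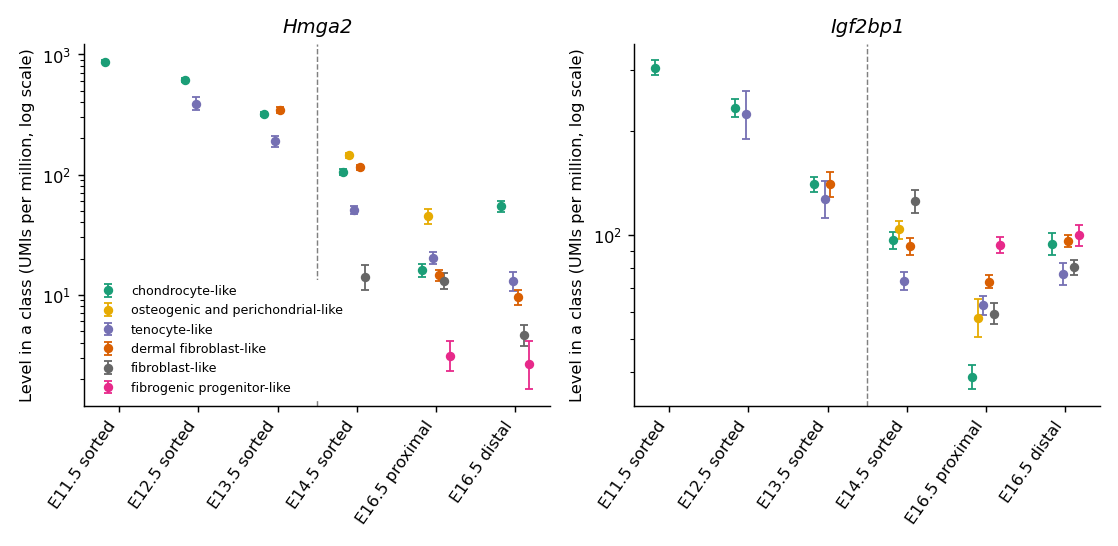
Level of *Hmga2* and *Igf2bp1* in 6 cell classes of the sorted libraries, in CPM on log axes that differ between panels, with 95% Poisson intervals; classes with under 50 cells in a library are left out and dashes mark the kit change. *Hmga2* ranges from 2.67 to 54.4 CPM over the E16.5 classes, with distal chondrocyte-like cells highest, whereas *Igf2bp1* is lowest in proximal chondrocyte-like cells.

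Epithelial cells, which the study removed at E16.5, included the clusters with the highest *Hmga1* levels of those libraries. In E16.5 proximal cells the highest *Hmga1* cluster was led by the basal keratinocyte genes *Krt14* and *Krt5*, at 44.8 CPM (40.3 to 49.7), and in distal cells it was the epithelial-like cluster, at 36.4 CPM (29.2 to 44.7). The *Krt1*-led epithelial-like cells of the proximal library were lower in *Hmga1*, at 10.00 CPM, and held 1.18 CPM of *Hmga2* against 37.9 CPM in the basal cluster. Among mesenchymal classes of E16.5, *Hmga1* was highest in dermal fibroblast-like cells, at 12.7 CPM proximally and 12.3 CPM distally, and lowest in proximal osteogenic and perichondrial-like cells, at 0.928 CPM on 4 UMIs, so its order over classes was not that of *Hmga2*. Removing epithelial clusters left *Hmga2* at a log2 value of -5.63 and *Hmga1* at -3.87 from E11.5 to E16.5 proximal.

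At E11.5 the sorted library was compared with the 2 whole limb libraries in mesenchymal cells by edgeR's quasi-likelihood test, to ask whether *Hic1*-lineage cells differed from the limb bud as a whole. The paper found tdTomato+ cells of this stage mostly in proximal limb fragments, while the whole limb libraries came from entire limbs. Position in the limb and lineage therefore cannot be told apart in this comparison. The sorted cells held less *Lin28b*, by 1.26 ± 0.17 on the log2 scale (SE; adjusted p = 6.1e-12), less *Igf2bp1*, by 0.38 ± 0.11 (adjusted p = 0.00149), and more *Hmga1*, by 0.85 ± 0.10 (adjusted p = 1.7e-15). These 3 of 7 members stood beside 53.5% of 15106 genes called, 27.0% higher and 26.5% lower, a share near that of the members. *Hmga2* differed by 0.14 (adjusted p = 0.310), *Igf2bp2* by 0.03 (adjusted p = 0.788), *Igf2bp3* by -0.01 (adjusted p = 0.941) and *Lin28a* by 0.39 (adjusted p = 0.604), none past the threshold in this edgeR fit. The fit had 1 residual degree of freedom, from the whole limb libraries, and took the 1 sorted library to vary like them. The labels do not say whether the whole limb replicates came from separate litters. Their *Hmga1* levels, 32.7 and 47.6 CPM, differed widely, and its call was lost with DESeq2 (adjusted p = 0.197) and without a filter on low counts (edgeR, adjusted p = 0.123). *Igf2bp1* was not called without that filter (edgeR, adjusted p = 0.0600) or in non-cycling cells alone (edgeR, adjusted p = 0.776), and the cycling share was 79.5% in sorted against 96.0% and 95.4% in whole limb cells, whose part in the differences was not tested. *Lin28b* passed with each tool and filter in which it was tested, and its level of 4.67 CPM lay below both whole limb values. It was too rare to be tested in non-cycling cells. In G2/M cells, over all classes, the levels were 4.55 CPM (3.64 to 5.62) sorted against 11.2 and 9.89 CPM whole limb. In S-phase cells the intervals overlapped, at 5.49 CPM (3.95 to 7.42) against 6.83 CPM (4.94 to 9.20) and 6.87 CPM (4.95 to 9.28). G2/M cells made up 51.9% of sorted and 79.3% and 79.0% of whole limb cells, and the part of this share was not tested.

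Between the E16.5 segments 0 of 5 members passed 2-fold, against 4.39% of 10352 genes lower and 4.42% higher distally. *Hmga2* was 1.41-fold lower distally (1.33 to 1.5), *Hmga1* 1.38-fold higher (1.29 to 1.49), *Igf2bp1* 1.31-fold higher (1.29 to 1.34) and *Igf2bp2* 1.11-fold lower (1.08 to 1.14). *Igf2bp3* was level at 1.01-fold (0.984 to 1.04). With TMM scaling the split was 5.67% lower and 2.81% higher, the median gene moved from 0.13 to -0.05, and *Igf2bp3* turned from 0.02 to -0.16 on the log2 scale. *Hmga2* was thus lower distally in the whole library and higher distally in chondrocyte-like cells.

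Genes around the let-7 axis were followed in lists chosen with earlier results of these data known. Of 18 genes of let-7 control and miRNA processing tested from E11.5 to E16.5 proximal, 6 were at least 2-fold lower and none higher, a share near the 28.0% of all genes that were lower (13.8% were higher), with a median log2 ratio of -0.80 beside -0.47 for all genes. The same 2 percentages are the background of each list count over this course. *Trim71*, a ubiquitin ligase that is itself a let-7 target, went from 12 CPM at E11.5 to 3.30, 1.85 and 1.66 CPM at the next 3 stages and 0.651 CPM in E16.5 proximal cells. *Msi1*, an RNA-binding protein, went from 50.1 to 6.87 CPM, and *Dicer1*, the nuclease that cuts out the mature miRNA, from 112 to 28.6 CPM. Of 16 let-7 host transcripts listed only *Wdr82* was measured, so let-7 itself was not observed.

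Of 19 further textbook let-7 target genes tested over the same course, 12 were at least 2-fold lower and 1 was higher, with a median of -1.24. *Igdcc3*, a cell surface protein, went from 33.1 to 0.979 CPM, *Arid3b*, a DNA-binding factor, from 21.9 to 0.528 CPM and *Mycn*, a growth-promoting transcription factor, from 36 to 2.69 CPM. *Igdcc3* and *Arid3b* were already at 3.0 and 4.19 CPM at E13.5, within the v2 kit, where 3 of 17 list genes and 3.49% of all genes passed the limit. The death receptor *Fas* went the other way, from 0.762 to 7.19 CPM. In the G2/M and S-phase lists 23 of 32 and 22 of 33 genes were at least 2-fold lower, with medians of -1.35 and -1.20, close to that of the let-7 target genes.

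Of 8 messages known to bind IGF2BP proteins tested from E11.5 to E16.5 proximal, none was at least 2-fold lower, with a median of -0.34. *Myc*, a growth-promoting transcription factor, was at 37.6 and 19.5 CPM, and the noncoding RNA *H19* at 2584 and 1495 CPM. The list held 2 genes past the limit upwards, namely *Cd44*, a hyaluronan receptor, from 2.63 to 96.3 CPM and *Ptgs2*, a prostaglandin synthase, from 0.317 to 7.37 CPM. Other HMG box and HMGN genes had 2 of 7 lower, *Hmgb2* and *Hmgb3*, and none higher (median -0.77). Of 15 other cold shock and KH domain RNA-binding genes 7 were lower and 1, *Ybx3*, was higher at 399 against 30.5 CPM (median -0.94). Of 16 housekeeping genes 3 were lower and 2 higher, with a median of -0.10.

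The lists were also counted in the cycling test, in which 8.89% of all genes were higher and 3.49% lower in cycling cells. All 7 other HMG genes were higher in cycling cells, with a median of 0.81, as were 6 of 20 let-7 target genes, among them *Mycn* and *Cdc25a*. The count was 4 of 16 for housekeeping genes and 4 of 15 for other cold shock and KH domain genes, shares near that of the let-7 target genes. Of 9 messages that bind IGF2BP proteins 3 were lower, *H19*, *Cd44* and *Igf2*. In E11.5 sorted against whole limb cells, 13 of 18 genes of let-7 control and miRNA processing were lower and 1 higher, beside 26.5% and 27.0% of all genes, *Trim71* among the lower, at 12 CPM against 19.1 and 19.2 CPM. In the same comparison 23 of 32 G2/M genes and 25 of 33 S-phase genes were lower, with medians of -0.44 and -0.59 beside -0.32 for the let-7 control and miRNA processing list, and the part of the cycling share in these counts was not tested.

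The genes most like each member were those with the highest Pearson correlation of log2(CPM + 1) over the 8 libraries, among 4804 genes at 50 CPM or more in a library. These 8 points share stage, kit and depth, and the correlations are a description. *Bcl2l12* (0.998), *2610318N02Rik* (0.998) and *Ube2d3* (0.996) were closest to *Hmga2*, and *Hsd11b2* (0.997), *Adipor1* (0.995) and *Zfp410* (0.995) to *Igf2bp2*. *Fam60a* (0.995), *Id2* (0.994) and *Ccnt2* (0.994) were closest to *Igf2bp1*, and *E2f5* (0.995), *Kctd15* (0.995) and *Eif4e* (0.994) to *Igf2bp3*. The genes nearest *Lin28b*, namely *Cenpq* (0.995), *Exo1* (0.995) and *Uhrf1* (0.995), have roles at the kinetochore, in DNA repair and in the upkeep of DNA methylation, and like it were highest in the whole limb libraries. For *Hmga1* the nearest were *Kif23* (0.976), *Pnrc2* (0.959) and *Mmadhc* (0.957), and its correlation with *Hmga2*, *Lin28b* and the Igf2bp genes was 0.817 to 0.908. *Exo1* and *Uhrf1* are in the S-phase list and *Kif23* in the G2/M list by which cells were called cycling. The part of the cycling share in these correlations was not tested. *Hmga2* and *Igf2bp2* (0.987) and *Igf2bp1* and *Igf2bp3* (0.983) were the closest pairs of members.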

How the data were processed

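Single-cell RNA sequencing of mouse forelimb cells gave 8 libraries (10x Chromium, Cell Ranger, mm10, per the labels and the study's methods). The authors deposited unnormalised counts of UMIs, by gene and by cell, which were used as deposited. The 7 genes and all gene lists were chosen with earlier results of these data known. Cells with at least 3000 UMIs and at most 10% mitochondrial UMIs were kept, the UMI limit being the study's, and their counts were summed per library, state, cluster or class and scaled to CPM with exact Poisson 95% intervals. These cover counting error only, since the stages have 1 library each. No trend over embryonic day was fitted and no stage was tested against another. Genes were read as past 2-fold on CPM + 1 among genes that reached 5 CPM in at least 1 of both libraries.

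Libraries were clustered separately (scanpy 1.11.5, 2000 variable genes, 50 components, Leiden resolution 1). After the clusters were seen, those led by cycle or histone genes were left unnamed, and those with at least 3 epithelial markers among their top 10 genes counted as epithelial when such cells were removed. Cells with a high doublet score (Scrublet's method, the top 0.8% per 1000 cells) were kept in the main values and removed as an alternative. Epithelial cells were kept, unlike in the study, and removed as an alternative.

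Tests used edgeR 4.0.16 (quasi-likelihood, TMM, legacy setting, R 4.3.3) at an adjusted p of 0.05, with DESeq2 1.42.0 and limma 3.58.1 as alternatives. The test scripts were tested on simulated data. There edgeR's cycling test missed most of the small changes, and its false calls took a larger share of its calls than the threshold allows, so that single calls of small size are less certain than their adjusted p and a member that did not pass may still differ. Pathway genes were named by the largest ratios past 2-fold, up to 5 a list, and likeness by the 3 highest correlations per member. The comparison of the cycling contrast between whole limb and sorted libraries, and edgeR without its legacy setting, were added after the data were seen.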

Additional observations from a re-analysis of the deposited data

Results flagged for a closer look

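The contrast of cycling against non-cycling cells was compared between the whole limb and the sorted libraries by an interaction term in edgeR, a comparison chosen after the data were seen, in which 13.9% of 16841 genes differed. For 3 members the contrast differed between the groups, with cycling cells relatively higher in the whole limb: *Igf2bp1* by 0.58 on the log2 scale (adjusted p = 0.00701), *Igf2bp2* by 0.89 (adjusted p = 0.00167) and *Igf2bp3* by 0.82 (adjusted p = 0.0216). *Igf2bp2* was at 174 CPM in cycling cells of both whole limb libraries and at 114 CPM (78.6 to 160) and 132 CPM (91.4 to 184) in their non-cycling cells. *Igf2bp3* was at 182 and 171 CPM in cycling and 166 and 93.2 CPM in non-cycling cells of the same libraries, and *Igf2bp1* at 363 and 380 against 377 and 303 CPM, so that in whole 1 the CPM of *Igf2bp1* was not lower in non-cycling cells. The non-cycling whole limb cells numbered 46 and 41, of which 22 and 27 were chondrocyte-like, against 153 to 5061 in the sorted libraries. The interaction was fitted with TMM scaling only, so how far its size depends on the scaling of these small sums was not tested. *Lin28b* (2.14, adjusted p = 0.127), *Hmga1* (0.10, adjusted p = 0.926) and *Hmga2* (0.14, adjusted p = 0.691) did not pass in the same edgeR fit.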

How the results depend on the processing

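In the stage comparisons the counts of members past 2-fold moved by less than 1.5 times under every alternative run. Of the single log2 ratios, *Igf2bp3* between the E16.5 segments, which was not past 2-fold, changed sign with TMM (0.02 to -0.16) and with DESeq2 size factors (-0.13), and *Igf2bp2* from E14.5 to E16.5 proximal went from -0.25 to -0.01 with both. In the E11.5 comparison edgeR called 8082 genes, DESeq2 4898, edgeR without a filter on low counts 4089 and edgeR in non-cycling mesenchymal cells 391 of 4319, and the 3 members called became 1 without the filter (*Lin28b*) and 1 in non-cycling cells (*Hmga1*). No paired analysis was possible because the sorted group of this comparison has 1 library, and leaving out either whole limb library left no residual degrees of freedom and so no test.

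Within libraries 2086 genes differed between cycling and non-cycling cells. DESeq2 called 3427, the 6 sorted libraries alone gave 3827 and G2/M cells alone as cycling gave 3358. With no replicate block, which ignores that both states come from 1 library, 555 genes and 0 members were called. With non-cycling cells limited to those with no gene of both lists 1 member was called, beside 1084 of 15767 genes higher and 339 lower. Leaving out 1 library at a time gave 1241 (without E16.5 distal) to 2579 (without whole 2), with both Hmga genes called each time. edgeR without its legacy setting, chosen after seeing the data, called 8051 and 2907 genes, with 3 and 2 members.

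*Hmga2* in distal over proximal chondrocyte-like cells, 3.39, was 2.86 at Leiden resolution 2 and 2.11 with single cells classed by markers. The cause of these shifts was not tested. Each stage is 1 library, so library and stage cannot be told apart, and levels of a few UMIs (*Lin28a*, late *Lin28b*) are limited by depth.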
